A study of Homo sapiens with 58 samples.

Results

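The amino acid and ER stress genes around ATF4 were examined across every line, medium, ligand and inhibitor of the HaCaT model system. The 10 genes were taken as listed: the transcription factors ATF4, ATF3 and DDIT3, the amino acid synthesis enzymes ASNS, PSAT1 and PHGDH, the stress targets TRIB3, CHAC1 and SESN2, and the endoplasmic reticulum (ER) chaperone HSPA5. All 10 were measured, with 17 of the 41097 probe sets that carried a single gene symbol. For each gene, as for all 19775 genes tested, the probe set brightest on average over the 58 arrays was used. Gene expression values were deposited on the log2 scale, so a difference of 1 is a doubling, and levels were not compared between genes.

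HaCaT is an immortalized human keratinocyte line, and its derivatives were labelled with forced expression of EGFR (HaCaT-EGFR), HRAS-VAL12D (HaCaT-HRAS), RELA/p65 (HaCaT-p65) or a mock vector (HaCaT-vector). Serum was present for 5 HaCaT-EGFR arrays and for 3 arrays each of HaCaT-HRAS, HaCaT-p65, HaCaT-vector and HaCaT. The starved arrays, without serum, numbered 7 for HaCaT-EGFR, 3 for HaCaT-p65 and 4 for HaCaT-vector. EGF was added to starved HaCaT-EGFR (7 arrays) and HaCaT-vector (4 arrays), and TNF to starved HaCaT-p65 (5 arrays) and HaCaT-vector (3 arrays), for 4 h or 8 h. The starved, EGF and TNF arrays of HaCaT-vector were all at 4 h. At 8 h were 2 starved and 2 EGF arrays of HaCaT-EGFR and 1 starved and 1 TNF array of HaCaT-p65. Comparisons pooled these times unless stated. The EGFR inhibitor gefitinib was given to HaCaT-EGFR with EGF (2 arrays) or in serum (2 arrays). The PI3K inhibitor LY294002 and the MEK inhibitor labelled U1026 were each given with EGF for 4 h to HaCaT-EGFR and to HaCaT-vector, with 1 array apiece. Nothing in the labels says that replicates were separate cultures, or whether a line is a single clone, so p-values measure the spread between these arrays and not between independent derivations of a line. In bulk RNA, fewer cells that express a gene and less of its RNA per cell cannot be told apart.

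In the integrated stress response, kinases that sense amino acid shortage, unfolded ER proteins, heme loss or viral RNA phosphorylate eIF2alpha, which lowers general translation and favours translation of ATF4 mRNA. ATF4 protein then activates genes of amino acid import and synthesis, tRNA charging and redox balance, together with ATF3, DDIT3 and TRIB3, which shape or restrain the response. ATF4 is controlled largely at translation, so its mRNA does not report its activity. HSPA5 belongs to the unfolded protein response of the ER and is induced mainly through ATF6 and XBP1.

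The arrays were processed on 6 dates and the authors had subtracted date effects from the values. All lines in serum shared date 1, so the serum comparisons between lines were made within that date (2 HaCaT-EGFR serum arrays, at 4 h and 8 h, were on date 6), and all inhibitor arrays were on date 6. HaCaT-EGFR in serum was the only condition on both date 1 and another date. The date correction therefore set the mean of its 2 date 6 arrays to that of its date 1 arrays. The introduced HRAS stood at 9.90 to 10.08 in the 3 HaCaT-HRAS arrays and at 7.24 to 7.74 in the 55 others. EGFR had 9 probe sets. The EGFR probe set with the highest mean read 9.40 to 10.01 in HaCaT-EGFR and 9.42 to 9.88 in HaCaT-vector and so did not set these lines apart, whereas probe set 210984_x_at read 6.84 to 7.44 in HaCaT-EGFR and 5.72 to 6.82 in HaCaT-vector. The rest are not described here, so this check of the line is partial and its label was followed. RELA read 10.13 to 10.42 in HaCaT-p65, 9.93 to 10.02 in HaCaT-vector and 9.658 to 10.205 in HaCaT in serum. With TNF it was lower in HaCaT-p65 (9.29 to 9.91) than in HaCaT-vector (10.07 to 10.17). Starved, the 2 lines overlapped, with means of 9.80 and 9.86. RELA thus did not set HaCaT-p65 apart over all media, and the label was followed. KRT5 and KRT14, keratins of basal keratinocytes, were at 10.8 or above and 10.7 or above in every array. The means of the melanocyte, leukocyte and fibroblast marker lists were at most 4.91, 4.44 and 5.97. The mean of the endothelial list was 6.23 to 6.37 in HaCaT-HRAS and at most 5.08 elsewhere, through CDH5 alone (up to 8.73), while PECAM1 and VWF did not pass the test in HaCaT-HRAS against HaCaT-vector, and the part of this difference in the HaCaT-HRAS results was not tested.

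The upstream sequences of the 10 genes were searched for elements known to bind factors of this response. The CARE element (letters TGATGNAAN, bound by ATF4 with a C/EBP partner) occurred on either strand in the promoter windows of ATF3, ASNS and CHAC1, 3 of the 10 genes, and in 3.611% of 35116 RefSeq promoter windows, each running from 250 bases before to 50 bases after a start. The ER stress response element (ERSE), searched on both strands as CCAAT and CCACG 9 bases apart, occurred in the HSPA5 window and in 0.077% of all windows. ERSE-II (ATTGG and CCACG, 1 base apart) occurred in 0 of the 10 genes and 0.054% of windows, and the CRE (TGACGTCA) in 0 of the 10 and 1.848%. The 10 genes had 16 windows, and a gene was counted if any of its windows held the element. The percentages are of single windows, so counts and percentages are unlike measures. The 250 bases before the start follow, 5′ to 3′ on the gene's strand from RefSeq on GRCh38.p14, with the element in capitals, for the 4 genes whose window held one of these elements. They are ASNS at chr7:97872409-97872658 (minus strand), CHAC1 at chr15:40953221-40953470 (plus strand), ATF3 at chr1:212565157-212565406 (plus strand) and HSPA5 at chr9:125241344-125241593 (minus strand).
ASNS: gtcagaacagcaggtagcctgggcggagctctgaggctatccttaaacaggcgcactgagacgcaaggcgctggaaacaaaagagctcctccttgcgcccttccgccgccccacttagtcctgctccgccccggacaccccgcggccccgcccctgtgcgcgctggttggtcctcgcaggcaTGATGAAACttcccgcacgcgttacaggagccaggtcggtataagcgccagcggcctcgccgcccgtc
CHAC1: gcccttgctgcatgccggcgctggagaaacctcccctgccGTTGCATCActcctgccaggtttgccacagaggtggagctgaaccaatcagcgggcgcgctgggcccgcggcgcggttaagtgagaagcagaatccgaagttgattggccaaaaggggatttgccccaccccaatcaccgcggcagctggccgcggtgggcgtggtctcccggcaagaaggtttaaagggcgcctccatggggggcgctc
ATF3: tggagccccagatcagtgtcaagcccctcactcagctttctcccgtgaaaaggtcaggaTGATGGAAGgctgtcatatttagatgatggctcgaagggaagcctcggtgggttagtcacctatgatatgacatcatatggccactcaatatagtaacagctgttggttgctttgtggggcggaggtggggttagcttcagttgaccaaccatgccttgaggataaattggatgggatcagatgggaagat
HSPA5: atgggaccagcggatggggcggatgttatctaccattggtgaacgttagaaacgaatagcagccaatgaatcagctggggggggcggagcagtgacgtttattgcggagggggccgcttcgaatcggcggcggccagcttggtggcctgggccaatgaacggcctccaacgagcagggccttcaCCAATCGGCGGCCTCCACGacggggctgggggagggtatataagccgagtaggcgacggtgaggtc
The CARE letters lay 68 to 60 bases before the start in ASNS, 191 to 183 bases before it in ATF3 and, on the opposite strand, 210 to 202 bases before it in CHAC1. ERSE lay 66 to 48 bases before the HSPA5 start. A match describes letters only and is not evidence of binding in these cells.

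ATF4 mRNA, ASNS and CHAC1 were lower in HaCaT-EGFR than in HaCaT-vector in serum, and no member was higher. ATF4 stood at 11.81, 11.36, 11.78, 11.63 and 11.68 in the 5 HaCaT-EGFR serum arrays, against 12.87, 13.01 and 12.90 in HaCaT-vector. All HaCaT-EGFR arrays lay more than 1 log2 unit below the lowest HaCaT-vector array. The change was -1.28 (SE 0.13), or 2.42-fold lower, with an adjusted p of 1.26e-09 (limma, Benjamini-Hochberg over all genes). ASNS, the enzyme that makes asparagine, averaged 9.77 ± 0.46 in HaCaT-EGFR and 11.34 ± 0.53 in HaCaT-vector (SD, n = 5 and 3), with arrays at 9.43 to 10.42 in HaCaT-EGFR and 10.82 to 11.87 in HaCaT-vector. The date 1 arrays alone spanned these same ranges, which did not overlap. The change was -1.57 (SE 0.30, adjusted p = 0.000339). CHAC1, which degrades glutathione, averaged 6.96 ± 0.38 in HaCaT-EGFR and 8.22 ± 0.46 in HaCaT-vector, again without overlap, a change of -1.25 (SE 0.31, adjusted p = 0.00603). The CHAC1 call was lost without HaCaT-vector replicate 1 (-1.002, adjusted p = 0.0836) or HaCaT-EGFR replicate 3 of date 1 (-1.06, adjusted p = 0.0644), while the ATF4 and ASNS calls held under every alternative run. The 3 members that passed are to be read beside 3.90% of all genes lower and 3.97% higher in this comparison, and the median change of the 10 was -0.46 beside -0.001 for all genes.

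The other 7 members did not pass in that comparison. PSAT1 and PHGDH, enzymes of serine synthesis, had changes of -0.51 (adjusted p = 0.0556) and -0.46 (adjusted p = 0.131). Paired through a replicate block, PSAT1 passed at -0.51 with an adjusted p of 0.0107. It also passed without HaCaT-EGFR replicate 1 (-0.62, adjusted p = 0.0323) or HaCaT-vector replicate 2 (-0.65, adjusted p = 0.0226), and PHGDH passed without HaCaT-vector replicate 3 (-0.63, adjusted p = 0.0379). TRIB3, a pseudokinase that dampens ATF4 activity, read 7.39 to 7.61 in HaCaT-EGFR and 7.74 to 7.95 in HaCaT-vector, with a change of -0.32 and an adjusted p of 0.276. DDIT3, the transcription factor known as CHOP, and HSPA5 had changes of 0.09 and 0.03, with 95% intervals of -0.40 to 0.58 and -0.36 to 0.42. A second HSPA5 probe set, 230031_at, was higher in HaCaT-EGFR by 0.76 when all probe sets were tested (adjusted p = 0.0458), so the 2 probe sets of this gene differed in their call.

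**Figure D1:**
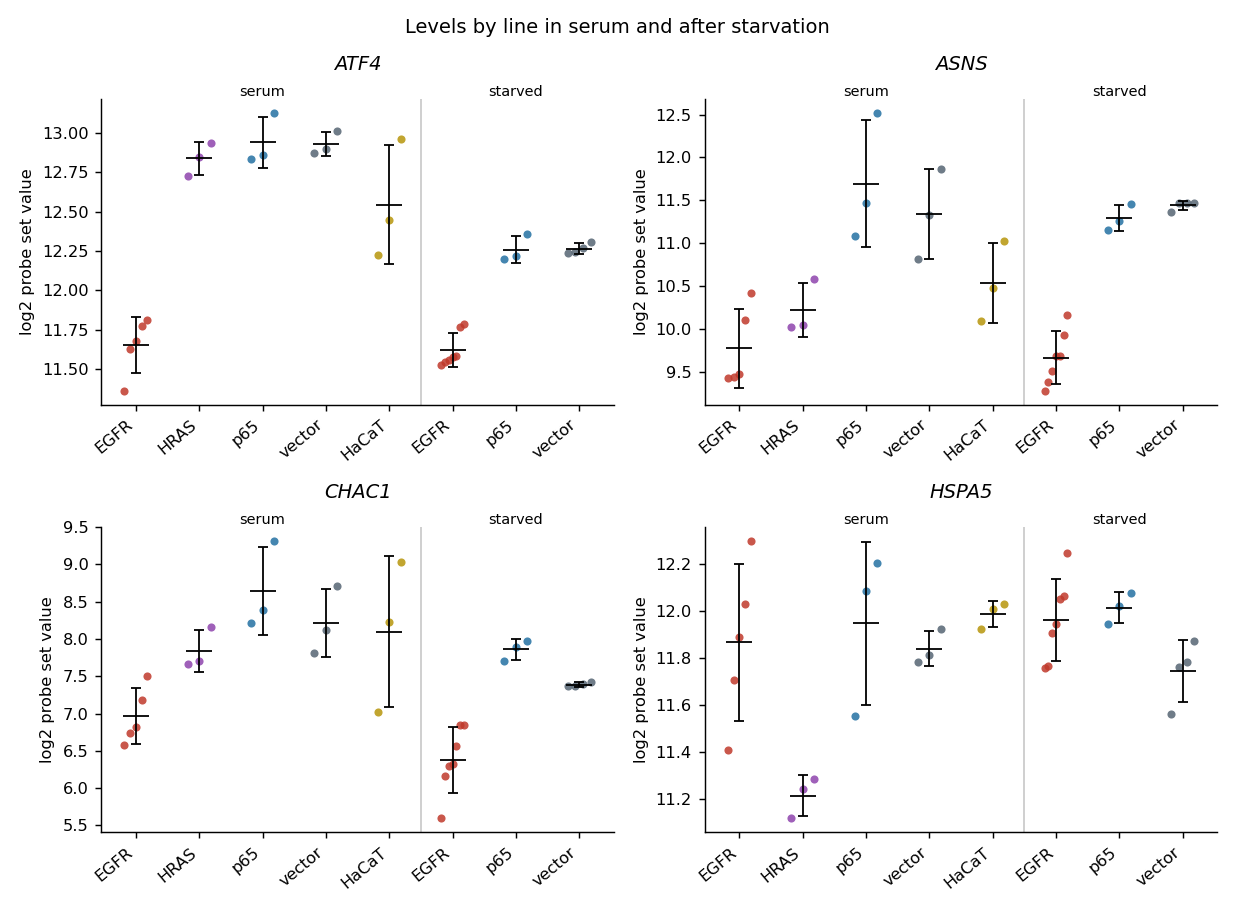
Log2 probe set values of ATF4, ASNS, CHAC1 and HSPA5 by line, in serum (left of the grey line) and starved (right), with each point 1 array and the bars the mean and SD. The HaCaT-EGFR arrays lie lowest for ATF4 in both media, and the 3 HaCaT-HRAS arrays lie lowest for HSPA5.

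The low ATF4 level was a property of every HaCaT-EGFR array, whatever the medium. Over serum, starvation, EGF and inhibitors, the 25 HaCaT-EGFR arrays read 11.36 to 12.11 with a median of 11.68, and the 33 arrays of the other lines read 12.20 to 13.13. Of the 10 members, ATF4 and HSPA5 were those for which all arrays of a line lay outside the range of all other arrays. These ranges join dates that the authors' date correction had put on a common level. How many of all genes set a line apart in this way was not counted, so the separation is a description only. In serum, ATF4 in HaCaT-EGFR was also below HaCaT-HRAS, at -1.19 (adjusted p = 1.3e-09), below HaCaT-p65, at -1.29 (adjusted p = 9.62e-10) and below HaCaT, at -0.89 (adjusted p = 7.83e-06). Fitted on the arrays of HaCaT-EGFR and HaCaT alone, the last had an adjusted p of 0.152. HaCaT read 12.22, 12.45 and 12.96, the widest spread of ATF4 among the serum groups.

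Set against HaCaT, 2 members passed in HaCaT-EGFR in serum, both lower, beside 2.28% of all genes. CHAC1 fell by 1.13 (adjusted p = 0.0285), but the 3 HaCaT arrays read 7.02, 8.22 and 9.04 and overlapped the HaCaT-EGFR range of 6.57 to 7.50. The CHAC1 call was lost without HaCaT replicate 2 (-0.66, adjusted p = 0.404), HaCaT replicate 3 (-1.07, adjusted p = 0.0897), HaCaT-EGFR replicate 2 (-1.06, adjusted p = 0.114) or HaCaT-EGFR replicate 3 (-0.94, adjusted p = 0.201), and on these groups alone (adjusted p = 0.516). ASNS did not pass, at -0.76 (adjusted p = 0.208), and HaCaT itself averaged 10.53 ± 0.47. Without HaCaT replicate 1, DDIT3 (-1.01, adjusted p = 0.00453) and SESN2 (-0.77, adjusted p = 0.0184) passed as well.

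Comparisons of HaCaT-EGFR with the other modified lines, added after the values were seen, gave more calls. Against HaCaT-p65, 6 members were lower beside 5.24% of all genes: ATF4, ASNS (-1.92, adjusted p = 1.36e-05), CHAC1 (-1.68, adjusted p = 0.000168), PHGDH (-0.83, adjusted p = 0.00103), TRIB3 (-0.65, adjusted p = 0.0028) and SESN2 (-0.68, adjusted p = 0.032). The TRIB3 call did not hold with the mean of its probe sets (-0.33, adjusted p = 0.345). The SESN2 call was lost without HaCaT-p65 replicate 1 (-0.55) or 3 (-0.59), or without HaCaT-EGFR replicate 2 (-0.49) or 3 (-0.65). It was also lost on these groups alone (adjusted p = 0.179) and in a fit that split the other groups by time (adjusted p = 0.0551). That split left the serum groups whole, so the arrays compared and the change stayed the same. Against HaCaT-HRAS, 4 members were lower, beside 9.89% of all genes, and 1 was higher, beside 9.47%. Lower were ATF4, PHGDH (-1.14, adjusted p = 3.48e-06), TRIB3 (-0.56, adjusted p = 0.00537) and CHAC1 (-0.88, adjusted p = 0.0419), and higher was HSPA5 (0.65, adjusted p = 0.0114). ASNS, low in both lines, differed between them by -0.45 with an interval of -1.06 to 0.17. The CHAC1 call was lost without any 1 of HaCaT-HRAS replicates 1 (-0.71), 2 (-0.95) and 3 (-0.97) or HaCaT-EGFR replicates 2 (-0.80) and 3 (-0.68), the TRIB3 call without HaCaT-HRAS replicate 3 (-0.46) or with the mean of its probe sets (-0.27, adjusted p = 0.347) and the HSPA5 call without HaCaT-EGFR replicate 1 (0.44) or HaCaT-HRAS replicate 2 (0.60), or on these groups alone (adjusted p = 0.0654). CHAC1 was lost as well with all probe sets (adjusted p = 0.058), median centring (0.0634), quantile normalization (0.0562) and the split of other groups by time (0.0515). PSAT1 passed without HaCaT-HRAS replicate 1 (0.59) and with the replicate block (0.415, adjusted p = 0.0223), and SESN2 passed without that array (0.68) or without HaCaT-EGFR replicate 2 (0.74).

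HaCaT-HRAS showed another set of changes. Against HaCaT-vector in serum, 4 members were lower, beside 8.63% of all genes, and 1 was higher, beside 9.57%. The median change of the 10 was -0.38 beside -0.04 for all genes. ATF4 itself read 12.73, 12.85 and 12.94 in HaCaT-HRAS, against 12.87, 13.01 and 12.90 in HaCaT-vector. The groups overlapped and the change was -0.09, with a 95% interval of -0.35 to 0.17. SESN2, which senses leucine and restrains mTORC1, read 6.38, 6.59 and 6.87 in HaCaT-HRAS, against 7.37, 7.46 and 7.87 in HaCaT-vector. Its groups did not overlap, and the change of -0.96 (SE 0.21, adjusted p = 0.000729) held under every alternative run. PSAT1 read 9.72 to 10.29 in HaCaT-HRAS and 10.57 to 11.16 in HaCaT-vector, a change of -0.92 (SE 0.17, adjusted p = 4.88e-05) that also held throughout. Further probe sets of both genes passed in the same direction, PSAT1 220892_s_at at -0.89 and SESN2 223195_s_at at -0.75. ASNS was 10.22 ± 0.32 in HaCaT-HRAS and 11.34 ± 0.53 in HaCaT-vector (-1.12, adjusted p = 0.00594), a call lost without HaCaT-vector replicate 1 (-0.86, adjusted p = 0.0794).

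The 2 serine synthesis enzymes moved in opposite directions in HaCaT-HRAS. PHGDH, which catalyses the first step of the pathway, read 8.92, 8.94 and 8.98 in HaCaT-HRAS, against 7.91, 8.40 and 8.46 in HaCaT-vector, a change of 0.69 (SE 0.18, adjusted p = 0.00392). PSAT1, which catalyses the next step, was lower, as above. The PHGDH groups did not overlap, but the call was lost without HaCaT-vector replicate 3 (0.51, adjusted p = 0.0678). Against HaCaT, PHGDH was higher by 0.62 (adjusted p = 0.0104) and PSAT1 lower, at -0.53 (adjusted p = 0.0208), in a comparison where 8.85% of all genes were higher and 8.83% lower and where 1 member was higher and 3 were lower. Both calls depended on single arrays: PHGDH was lost without HaCaT replicate 1 (0.51) or 2 (0.52), and PSAT1 without HaCaT-HRAS replicate 2 (-0.46) or 3 (-0.43) or HaCaT replicate 3 (-0.49). SESN2 was also lower against HaCaT (-0.998, adjusted p = 0.000445). Fitted on the arrays of these 2 lines alone, PSAT1, PHGDH and SESN2 did not pass (adjusted p = 0.128, 0.109 and 0.0881), and without HaCaT replicate 3 ATF4 passed as higher (0.50, adjusted p = 0.00291).

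HSPA5, the chaperone BiP, was lowest in HaCaT-HRAS. Its 3 arrays read 11.12, 11.24 and 11.29, and the 55 others read 11.41 to 12.53. The change was -0.77 against HaCaT (SE 0.19, adjusted p = 0.00273), which held under every alternative run, and -0.62 against HaCaT-vector (adjusted p = 0.0167). The call against HaCaT-vector was lost without HaCaT-vector replicate 1 (-0.58, adjusted p = 0.0665), without HaCaT-HRAS replicate 2 (-0.58, adjusted p = 0.0708) and with the mean of both probe sets (-0.38, adjusted p = 0.222), since the dimmer probe set 230031_at changed by -0.14.

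HaCaT-p65 gave no member call against HaCaT-vector in serum. By limma, 0 of the 10 members passed and 3 had an unadjusted p under 0.05, beside 3.99% of all genes higher and 3.19% lower after adjustment. The 3 were DDIT3 (0.54), PHGDH (0.38) and TRIB3 (0.33), each with a positive change and an adjusted p of at least 0.229. Starved, 0 members passed and 0 had an unadjusted p under 0.05, beside 5.30% of all genes in either direction. No date held both starved groups, so this comparison rested on the HaCaT-EGFR arrays that link the dates. TRIB3 passed there with the replicate block (0.59, adjusted p = 0.031), in which no block held both groups. Against HaCaT in serum, ASNS was higher in HaCaT-p65 by 1.16 (adjusted p = 0.0124), the 1 member that passed beside 2.83% of genes higher. ASNS read 11.09, 11.47 and 12.52 in HaCaT-p65, against 10.09, 10.48 and 11.02 in HaCaT, and the call was lost without HaCaT replicate 1 (0.94, adjusted p = 0.116) or HaCaT-p65 replicate 1 (0.75, adjusted p = 0.167), and on these groups alone (adjusted p = 0.363). ATF4 (0.60) passed without HaCaT replicate 3 and CHAC1 (1.02, adjusted p = 0.034) without HaCaT replicate 2, and with the replicate block TRIB3 passed (0.37, adjusted p = 0.0463).

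Between HaCaT-vector and HaCaT 0 members passed by limma, but 4 had an unadjusted p under 0.05, beside 2.87% of all genes after adjustment. These were ATF4 (0.38), ASNS (0.81) and PSAT1 (0.39), higher in value in HaCaT-vector, and DDIT3 (-0.71), lower. DDIT3 read 6.22 to 6.81 in HaCaT-vector and 6.53 to 7.89 in HaCaT, and passed without HaCaT replicate 1 (-1.11, adjusted p = 0.00251). ATF4 passed without HaCaT replicate 3 (0.59, adjusted p = 0.00259). Single HaCaT arrays thus decided both calls.

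**Figure D2:**
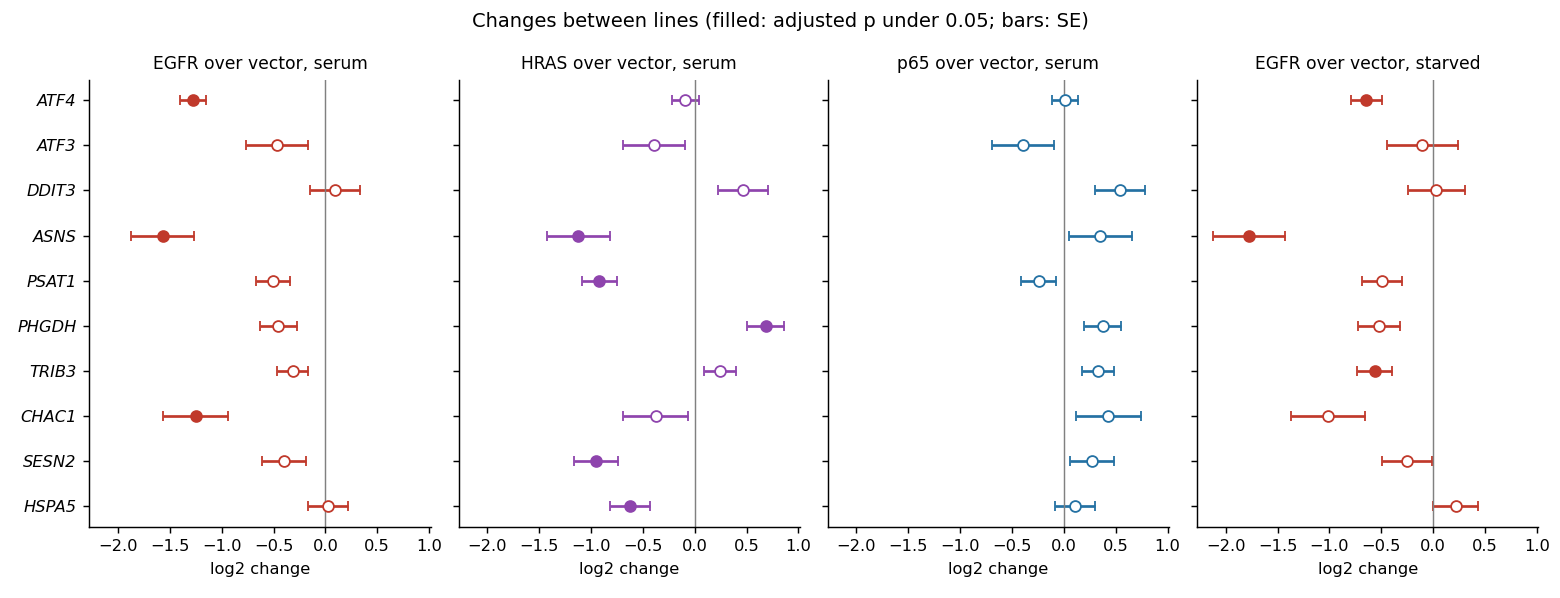
Log2 change of each member, with its SE, between HaCaT-EGFR, HaCaT-HRAS or HaCaT-p65 and HaCaT-vector in serum, and between starved HaCaT-EGFR and HaCaT-vector; filled points had an adjusted p under 0.05. ATF4, ASNS and CHAC1 are lowest in HaCaT-EGFR, while HaCaT-HRAS has lower PSAT1, SESN2, ASNS and HSPA5 and higher PHGDH.

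Starved cells showed the same 2 leading members in HaCaT-EGFR. ASNS read 9.28 to 10.16 in the 7 HaCaT-EGFR arrays (median 9.69), against 11.36, 11.46, 11.46 and 11.48 in HaCaT-vector, a change of -1.78 (SE 0.35, adjusted p = 0.000404). ATF4 read 11.53 to 11.79 in HaCaT-EGFR (median 11.58) and 12.23 to 12.31 in HaCaT-vector, a change of -0.64 (adjusted p = 0.00247). TRIB3 read 7.53 to 8.10 in HaCaT-EGFR and 8.26 to 8.44 in HaCaT-vector, a change of -0.56 (adjusted p = 0.0335). None of these groups overlapped, and the 3 members that passed were all lower, beside 3.94% of all genes lower and 3.95% higher. CHAC1 averaged 6.38 ± 0.44 in HaCaT-EGFR and 7.39 ± 0.03 in HaCaT-vector and did not pass (-1.01, adjusted p = 0.0791), except without the 8 h HaCaT-EGFR array of date 6 (-1.16, adjusted p = 0.0486), where PHGDH also passed (-0.68, adjusted p = 0.0243). A further PSAT1 probe set, 220892_s_at, changed by -1.09 when all probe sets were tested (adjusted p = 0.00636).

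These starved comparisons rested on date 6, the only date with both lines, which held 3 HaCaT-EGFR arrays and 1 HaCaT-vector array. Within it, ASNS differed by -1.81, ATF4 by -0.62 and TRIB3 by -0.46. Without the single HaCaT-vector array of that date the changes were -1.72 for ASNS, -0.68 for ATF4 and -0.64 for TRIB3, and all 3 calls were lost, with adjusted p-values of 0.0924, 0.132 and 0.337. TRIB3 was also lost without 1 HaCaT-EGFR array (4 h replicate 2 of date 6; -0.49, adjusted p = 0.0971) and with the replicate block (-0.38, adjusted p = 0.114), all probe sets (adjusted p = 0.0532) or median centring (adjusted p = 0.0813). Fitted on these groups alone, ASNS kept its call and ATF4 (adjusted p = 0.162) and TRIB3 (adjusted p = 0.527) did not.

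Other genes of the response, 69 measured of 72 listed, were called in both directions. In HaCaT-EGFR against HaCaT-vector in serum, 11 of the 69 were lower and 2 higher, beside 3.90% of all genes lower and 3.97% higher, with a median change of -0.04 beside -0.001 for all genes. Lower were 3 of 8 amino acid transporters (SLC1A4 -1.68, SLC7A5 -0.89, SLC3A2 -0.55), 4 of 11 aminoacyl-tRNA synthetases (among them YARS1 -0.49, CARS1 -0.47 and AARS1 -0.47), 3 of 10 further amino acid and one-carbon enzymes (CBS -1.30, CTH -0.71, BCAT1 -0.53) and DDIT4 (-1.16), an inhibitor of mTORC1. The 2 that were higher were the transcription factor genes CEBPB (0.92) and ATF5 (0.54). None of the 7 eIF2alpha kinases and phosphatase subunits, 13 ER chaperones and folding factors or 8 ER sensors and degradation factors passed by limma, and 1, 0 and 0 of them had an unadjusted p under 0.05. Starved, 9 were lower and 3 higher, beside 3.94% of all genes lower and 3.95% higher, and the largest changes were those of NUPR1 (-2.45), CBS (-1.72) and SLC1A4 (-1.43). In HaCaT-HRAS against HaCaT-vector, 6 were lower and 6 higher, near the shares of all genes (8.63% lower and 9.57% higher), and there SLC7A5 (1.02) and SLC3A2 (0.60), which together form a transporter of large neutral amino acids, were higher while CTH (-1.49), JDP2 (-1.03) and NUPR1 (-0.96) were lower. In HaCaT-p65 against HaCaT-vector, 7 were higher and 5 lower, beside 3.99% of all genes higher and 3.19% lower, led by SLC7A5 (-0.95), BCAT1 (-0.94) and EDEM1 (0.92).

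Genes with similar profiles and chromosomal neighbours were examined next, the neighbours after the values were seen. Over the 18 condition means, the genes most similar to ATF4 were XK (Pearson r = 0.947), RTL6 (0.936), RTCB (0.935), PRELID3B (0.922) and RTL8C (0.922), of which RTL6 and RTCB lie on chromosome 22 with ATF4. Those most similar to HSPA5 were NXN (0.924), MIR31HG (0.888), CHPF2 (0.866), KCTD12 (0.845) and CYP4F11 (0.84), of which MIR31HG lies on chromosome 9 with HSPA5. Of the 10 measured genes on each side of ATF4, 7 were lower in HaCaT-EGFR than in HaCaT-vector in serum and 0 higher, among them the adjacent MIEF1 (-0.65) and RPS19BP1 (-0.41), SGSM3 (-1.03) and MRTFA (-0.75). Their median was -0.30, and of all 459 other genes of chromosome 22, these 20 included, 13.29% were lower and 6.75% higher. Starved, 4 of the 20 were lower, with a median of -0.32, beside 8.71% of the other genes of chromosome 22.

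Around HSPA5, 10 of 20 neighbours were lower in HaCaT-HRAS than in HaCaT-vector and 1 was higher, with a median of -0.45, and of all 775 other genes of chromosome 9, 35.87% were lower and 4.13% higher, with a median of -0.28. PSAT1, on the same chromosome, had 8 of 20 neighbours lower and 1 higher. In HaCaT-EGFR against HaCaT-vector in serum, 0 of the 20 neighbours of ASNS on chromosome 7 passed as lower by limma, beside 2.58% of the other genes there. Around CHAC1 on chromosome 15 it was 0 of 20, beside 2.95%. At such shares 0 of 20 does not set these 2 genes apart. Each had 1 neighbour lower at an unadjusted p under 0.05. Around SESN2 on chromosome 1, 4 of 20 were lower in HaCaT-HRAS, beside 9.41% of the other genes there. In HaCaT-p65 against HaCaT-vector in serum, 4 of the 20 neighbours of CHAC1 were higher and 0 lower. Of the other genes of chromosome 15, 23.08% were higher and 0.82% lower. In the same comparison 5 of 20 neighbours of PSAT1 and 2 of 20 of HSPA5 were lower, and 0 and 1 higher. Of the other genes of chromosome 9, 10.84% were lower and 1.55% higher. Around TRIB3 on chromosome 20, 4 of 20 were higher and 0 lower in HaCaT-HRAS than in HaCaT-vector. Of the other genes there, 25.04% were higher and 0.85% lower. In HaCaT-EGFR in serum 0 of these 20 passed in either direction, beside 19.08% higher and 8.52% lower. These are descriptions without a test, and DNA copy number was not measured. The part of neighbouring genes in the ATF4, HSPA5, PSAT1, CHAC1, SESN2 and TRIB3 differences was not tested.

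**Figure D3:**
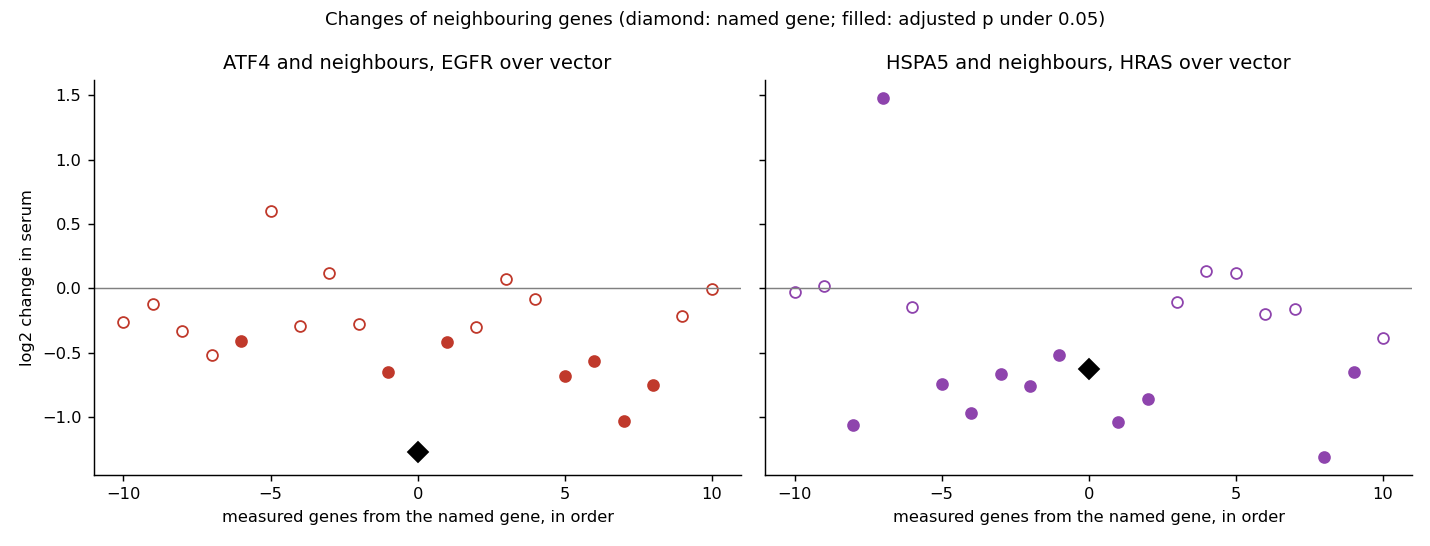
Log2 changes in serum of the 10 measured genes on each side of ATF4 (left, HaCaT-EGFR over HaCaT-vector) and of HSPA5 (right, HaCaT-HRAS over HaCaT-vector), by gene order along the chromosome, with the named gene as a black diamond and filled points at an adjusted p under 0.05. The neighbours fall mostly below 0, with medians of -0.30 and -0.45, and 1 neighbour of HSPA5 is higher.

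The members did not follow ATF4 mRNA as a group. Over the 18 condition means, r with ATF4 was 0.89 for CHAC1, 0.74 for ASNS and 0.67 for PHGDH, but -0.20 for ATF3 and -0.22 for DDIT3. ASNS and PSAT1 correlated at 0.81. These means share lines and dates and carry no p. The genes most similar to ASNS were FAU (0.958), MROH1 (0.957), TATDN1 (0.95), FIBP (0.946) and YIF1A (0.938), none of them on chromosome 7 with ASNS, and those most similar to DDIT3 were CA14 (0.927), LCA5L (0.891), TSPAN31 (0.89), AP1G2 (0.883) and CEP95 (0.878), of which TSPAN31 lies on chromosome 12 with DDIT3.

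ATF3 was lower in serum than after starvation in HaCaT-EGFR, by a call that rested on single arrays. ATF3, a stress-induced repressor and partner of AP-1 proteins, read 7.85, 7.92, 8.09, 8.27 and 8.76 in serum, against 8.82 to 9.85 (median 9.24) starved. The groups did not overlap, and the change was -1.07 (SE 0.31, adjusted p = 0.0482), the 1 member that passed beside 1.99% of all genes lower. Within date 6 the difference was -1.20. The call was lost without any 1 of 6 arrays: the starved 4 h arrays replicate 1 of date 2 (-1.07), replicate 2 of date 3 (-1.07) and replicate 2 of date 6 (-1.003), the starved 8 h array of date 6 (-0.88), and the 4 h (-0.98) and 8 h (-1.16) serum arrays. It was also lost with the replicate block (-0.96, adjusted p = 0.0626), with the mean of its probe sets (-0.68, adjusted p = 0.058), with all probe sets, median centring or quantile normalization (adjusted p = 0.0658, 0.0639 and 0.0572) and with these groups alone (adjusted p = 0.168). With the starved arrays limited to 4 h, but all serum arrays kept, the adjusted p was 0.134. DDIT3 averaged 6.69 ± 0.29 in serum and 7.54 ± 0.35 starved and did not pass (-0.85, adjusted p = 0.0527), but did so with the replicate block (-1.05, adjusted p = 0.0147) and without HaCaT-EGFR serum replicate 1 of date 1 (-0.85, adjusted p = 0.0483), starved 4 h replicate 3 (-0.88, adjusted p = 0.0395) or starved 4 h replicate 2 of date 6 (-1.03, adjusted p = 0.014). Among further genes of the response, DDIT4 (-1.19), KLHL24 (-1.16) and SLC7A5 (-0.69) were lower in serum, the 3 of 69 that passed.

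In the other lines no date held both media, so the step from starved to serum rests on the HaCaT-EGFR arrays that link the dates. By limma 0 members passed in HaCaT-vector and 0 in HaCaT-p65, with 3 at an unadjusted p under 0.05 in each, beside 0.976% and 0.703% of all genes. ATF4 had the values 0.66 in HaCaT-vector and 0.68 in HaCaT-p65 but 0.03 in HaCaT-EGFR. The difference between the responses of HaCaT-EGFR and HaCaT-vector was -0.63 for ATF4 (unadjusted p = 0.00233, adjusted p = 0.263), the 1 of 10 members with an unadjusted p under 0.05 in an interaction that 0 members and 0.238% of all genes passed.

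EGF raised TRIB3 and lowered ATF3 in HaCaT-EGFR. TRIB3 read 7.94 to 8.41 with EGF (median 8.16), against 7.53 to 8.10 starved (median 7.77), with some overlap. The change was 0.40 (SE 0.10, adjusted p = 0.00699), was 0.35, 0.62 and 0.28 within the 3 dates, and held under every alternative run. ATF3 read 7.83 to 9.10 with EGF (median 8.59) and 8.82 to 9.85 starved (median 9.24), a change of -0.73 (SE 0.20, adjusted p = 0.0122) and of -0.62, -0.45 and -0.995 within the dates. These were 1 member higher, beside 3.88% of all genes, and 1 lower, beside 4.93%. CHAC1 was 6.92 ± 0.17 with EGF and 6.38 ± 0.44 starved (SD, n = 7 each) and did not pass (0.54, adjusted p = 0.0985), while ATF4 changed by 0.12 with an interval of -0.05 to 0.29. At 4 h alone TRIB3 passed (0.49, adjusted p = 0.0118) and ATF3 did not (-0.56, adjusted p = 0.207; adjusted p = 0.0535 at both times on these groups alone), and at 8 h, with 2 arrays a group, ATF3 was at -1.17 (adjusted p = 0.232) and 0 members passed. Among the further genes 7 were higher and 2 lower, with CEBPB (0.60), XBP1 (0.35) and SLC38A2 (0.29) higher and DDIT4 (-0.58) and KLHL24 (-0.58) lower.

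In HaCaT-vector, EGF left all 10 members below the threshold, with 0 at an unadjusted p under 0.05, beside 1.01% of all genes. TRIB3 averaged 8.11 ± 0.32 with EGF and 8.34 ± 0.08 starved (-0.23), so its value lay on the other side of 0 from that in HaCaT-EGFR. The difference between the lines was 0.62 (SE 0.17, unadjusted p = 0.000606, adjusted p = 1), 1 of 10 members at an unadjusted p under 0.05. As 0% of all genes passed this interaction, no difference between the lines was detectable for any gene. ATF3 was at -0.51 in HaCaT-vector with an interval of -1.05 to 0.03.

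TNF gave no member call. In HaCaT-p65 0 members passed by limma and 0 had an unadjusted p under 0.05, beside 2.03% of all genes. In HaCaT-vector 0 passed and 1 had an unadjusted p under 0.05, beside 0.905%, namely TRIB3 at 7.62, 7.96 and 8.09 with TNF against 8.26 to 8.44 starved (-0.44, adjusted p = 0.279). ATF3 was 9.64 ± 0.53 with TNF and 9.80 ± 0.08 starved in HaCaT-p65, and 9.79 ± 0.22 with TNF and 9.35 ± 0.21 starved in HaCaT-vector. For the difference between lines 0 members passed and 0 had an unadjusted p under 0.05, beside 0.0101% of all genes. One HaCaT-p65 array with TNF (replicate 3) is described as a control in the study's sample sheet, and without it 0 members passed in either test.

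Gefitinib, given with EGF to HaCaT-EGFR, lowered CHAC1 and TRIB3. CHAC1 read 5.26 and 5.89 with gefitinib, against 6.60 to 7.04 with EGF alone (median 7.00), a change of -1.34 (SE 0.33, adjusted p = 0.022). TRIB3 read 7.24 and 7.25 with gefitinib, against 7.94 to 8.41 with EGF alone, a change of -0.93 (SE 0.16, adjusted p = 0.000807). Neither group overlapped the EGF arrays, and the 2 members that passed were lower, beside 1.08% of all genes lower and 0.728% higher. Within date 6, where both groups have arrays, the differences were -1.23 for CHAC1 and -0.87 for TRIB3. Gefitinib had 2 arrays, and CHAC1 was lost without the 4 h array (-1.66, adjusted p = 0.102) or the 8 h array (-1.03, adjusted p = 0.618), and TRIB3 without the 8 h array (-0.92, adjusted p = 0.0555), and at 4 h alone both were lost. On these groups alone TRIB3 had an adjusted p of 0.0676.

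ATF3 and SESN2 did not pass with gefitinib and EGF. ATF3 read 9.39 and 9.74 with gefitinib, against 7.83 to 9.10 with EGF alone. The groups did not overlap, but the change of 1.05 did not pass (adjusted p = 0.0715). It passed with the mean of its probe sets (0.82, adjusted p = 0.0296) and with the replicate block (1.16, adjusted p = 0.046), which did not pair these arrays. SESN2 read 6.64 and 6.77 with gefitinib and 7.22 to 7.63 with EGF (-0.71, adjusted p = 0.0929). Among further genes KLHL24 (1.10) was higher and STC2 (-0.93), CEBPB (-0.80), GARS1 (-0.60) and MTHFD2 (-0.50) were lower. Against starved HaCaT-EGFR, gefitinib with EGF gave 0 members and 0% of all genes past the threshold by limma, with 2 members at an unadjusted p under 0.05, TRIB3 (-0.53) and CHAC1 (-0.80).

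**Figure D4:**
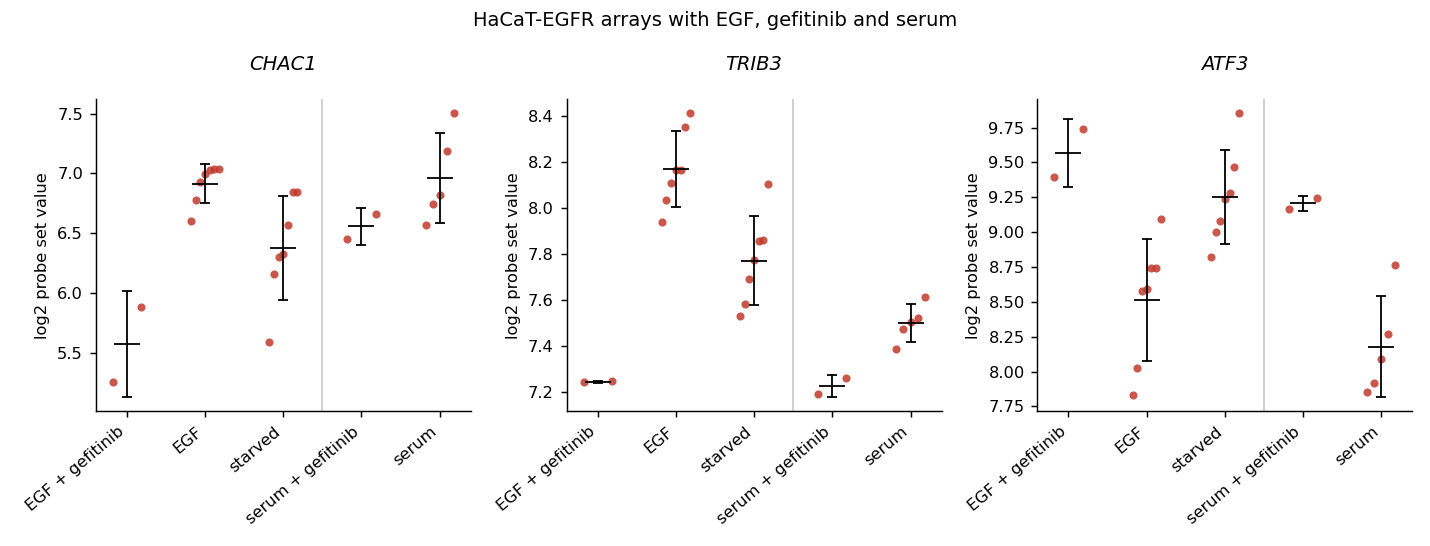
Log2 probe set values of CHAC1, TRIB3 and ATF3 in HaCaT-EGFR with EGF and gefitinib, EGF, starved, serum and gefitinib, and serum, with each point 1 array and the bars the mean and SD. CHAC1 and TRIB3 lie below all EGF arrays when gefitinib was added, and ATF3 lies above them.

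In serum, gefitinib moved ATF3 by a similar amount without passing. ATF3 read 9.17 and 9.24 with gefitinib, against 7.85 to 8.76 in serum alone (1.03, adjusted p = 0.163), the 1 member with an unadjusted p under 0.05 while 0 passed, beside 1.79% of all genes. TRIB3 read 7.19 and 7.26 with gefitinib, against 7.39 to 7.61 in serum (-0.28, interval -0.65 to 0.10), and CHAC1 read 6.45 and 6.67 against 6.57 to 7.50 (-0.41, interval -1.19 to 0.37). The response to gefitinib with EGF minus that in serum, tested after these values were seen, was -0.65 for TRIB3 (unadjusted p = 0.0111, adjusted p = 1) and 0.02 for ATF3. By limma 0 members and 0% of all genes passed this interaction, and 1 member had an unadjusted p under 0.05.

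The inhibitors of kinases below EGFR were compared with EGF alone over both lines, with 1 array per line. U1026 raised DDIT3, which read 8.62 with U1026 against 6.98 to 7.99 with EGF in HaCaT-EGFR, and 8.12 against 7.10 to 7.29 in HaCaT-vector. Both U1026 arrays lay above every EGF array of their line, and the change was 1.08 (SE 0.25, adjusted p = 0.00906). It was the 1 member higher, beside 1.29% of all genes higher and 1.73% lower. Against EGF arrays of the same date and time the differences were 1.07 in HaCaT-EGFR and 0.88 in HaCaT-vector, and the call was lost without the HaCaT-vector EGF array of that date (1.12, adjusted p = 0.0585) and on these groups alone (1.07, adjusted p = 0.135). ATF3 read 10.12 with U1026 in HaCaT-vector against 8.60 to 9.12 with EGF, but 8.63 in HaCaT-EGFR, within its EGF range of 7.83 to 9.10, and did not pass (0.69, adjusted p = 0.268). Among further genes 3 passed, all higher, namely NUPR1 (1.43), DDIT4 (0.89) and PPP1R15A (0.54), a subunit that directs eIF2alpha dephosphorylation.

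LY294002 gave 0 member calls by limma, with 1 at an unadjusted p under 0.05, beside 0.693% of all genes. That member was TRIB3, at 7.48 with LY294002 against 7.94 to 8.41 with EGF in HaCaT-EGFR, and at 7.69 against 7.75 to 8.53 in HaCaT-vector. Both arrays lay below all EGF arrays of their line, with differences on the same date of -0.67 and -0.46. The change of -0.55 had an adjusted p of 0.0921. With the replicate block, which did not pair these arrays, the adjusted p was 0.00596 (-0.65). DDIT3 changed by 0.15 with LY294002 (interval -0.36 to 0.66). ATF4 changed by 0.24 with LY294002 and by -0.02 with U1026, and neither passed. The arrays of U1026 and LY294002 were single in each line, and the 2 inhibitors were not tested against each other.

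**Figure D5:**
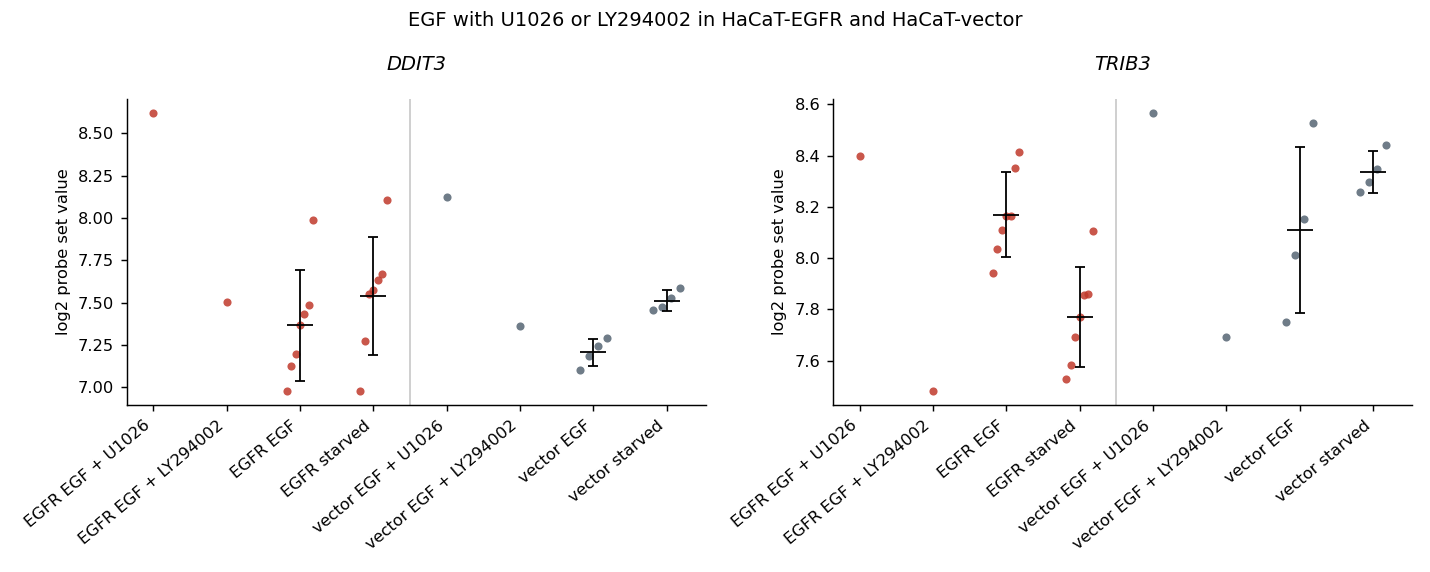
Log2 probe set values of DDIT3 and TRIB3 with EGF and U1026, EGF and LY294002, EGF, or starved, in HaCaT-EGFR (left of the grey line) and HaCaT-vector (right), with each point 1 array and the bars the mean and SD where there are several. DDIT3 is highest with U1026 in both lines, and TRIB3 is lowest with LY294002.

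Probe sets that were not the brightest of their gene were few and mostly dim. ATF3 had 1554420_at and 1554980_a_at (means 5.05 and 6.37), ASNS 241082_at (3.74), TRIB3 1555788_a_at (4.80), SESN2 223195_s_at (5.90), PSAT1 220892_s_at (8.91) and HSPA5 230031_at (9.47), beside a median of 6.17 over the genes. Of these 7, those of HSPA5, PSAT1 and SESN2 passed in at least 1 comparison, and those of ATF3, ASNS and TRIB3 in 0. HSPA5 230031_at was also higher in HaCaT-EGFR than in HaCaT-HRAS (0.90, adjusted p = 0.00507), and SESN2 223195_s_at lower in HaCaT-HRAS than in HaCaT (-0.73, adjusted p = 0.00387).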

How the data were processed

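The authors normalized the 58 Affymetrix U133 Plus 2.0 arrays by fRMA and deposited log2 values from which they had subtracted date effects with limma. The array medians were 4.983 to 5.237, and the number of arrays limits the precision. Gene symbols came from the platform annotation, in which 41097 of 54675 probe sets had 1 symbol, 1801 several and 11777 none.

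For each of 19775 genes the probe set with the highest mean was fitted with limma 3.58.1 (R 4.3.3) on 18 conditions and 6 dates, with 35 residual degrees of freedom. The date term costs the degrees of freedom that the deposited correction had used (largest date coefficient 1.2e-08). Calls were made at an adjusted p under 0.05 (Benjamini-Hochberg, all genes). Intervals are 95% intervals of the fit. Of 30 pairs of serum arrays with the same replicate number, 22 correlated over 0.1 in their deviations (range -0.193 to 0.594). Every pair did so between HaCaT-EGFR, HaCaT-HRAS and HaCaT-vector, so a replicate block (date and replicate number) was fitted as an alternative. These pairs were all on date 1. On date 6, replicate 1 held both lines, both times and all inhibitor arrays, so the block did not pair the arrays of that date.

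The members and lists were chosen with earlier results of these data known. The text names all members, the introduced genes, up to 3 called genes per further list with the largest changes, and the 5 most similar genes of ATF4, ASNS, DDIT3 and HSPA5. HaCaT-EGFR against HaCaT-HRAS and HaCaT-p65, and the gefitinib interaction, were added after values were seen. Alternatives covered normalization, dates, probe sets, dim genes, times and single arrays. The fit was tested on simulated data.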

Additional observations from a re-analysis of the deposited data

Results flagged for a closer look

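Of 60 groups of 4 to 10 arrays checked for a lone extreme value among the 10 genes, 2 held one, and chance alone gives about 1 in 20 groups. ASNS in starved HaCaT-vector was 11.36 in replicate 1 of date 5, against 11.46 to 11.48 in the other 3 arrays, a gap of 0.902 of the range (limit 0.829). TRIB3 in HaCaT-p65 with TNF was 8.80 in replicate 2 of date 3, against 8.48 to 8.56 in the other 4 arrays, a gap of 0.765 of the range (limit 0.71).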

How the results depend on the processing

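Of the 35 member calls over the 27 comparisons, 12 held under every alternative run and 0 reversed; 77 of 605 repeat tests lost a call and 71 tests that had not passed gained one. The counts of members called changed as follows. The share of all genes called under each fit is not given, so the counts do not set the members against other genes. Without the date term they were 5 for HaCaT-EGFR over HaCaT-vector in serum, 4 for HaCaT-EGFR over HaCaT, 2 for HaCaT-p65 over HaCaT, 6 for starved HaCaT-EGFR and 2 for starved HaCaT-p65 over HaCaT-vector, 5, 6 and 3 for serum over starved in HaCaT-EGFR, HaCaT-vector and HaCaT-p65, 1 for the serum interaction, 4 for gefitinib with EGF, 1 for gefitinib in serum and 1 for LY294002; this fit ignores the degrees of freedom used by the date correction. With the replicate block they were 2 for HaCaT-p65 over HaCaT, 1 for starved HaCaT-p65 over HaCaT-vector and 1 for LY294002. No block held both starved HaCaT-p65 and starved HaCaT-vector arrays, so that comparison was not paired. The LY294002 arrays shared a block with all other replicate 1 arrays of date 6, so they were not paired either. With dim genes left out (9888 genes) they were 2 for HaCaT-p65 over HaCaT, 2 for serum over starved in HaCaT-EGFR, 4 for gefitinib with EGF and 1 for LY294002. Fitted on the compared groups alone, with fewer arrays, they were 0 for HaCaT-EGFR over HaCaT, 1 for HaCaT-HRAS over HaCaT, 0 for HaCaT-p65 over HaCaT, 1 for starved HaCaT-EGFR over HaCaT-vector, 0 and 1 for serum over starved in HaCaT-EGFR and HaCaT-vector, 1 each for EGF and for gefitinib with EGF in HaCaT-EGFR and 0 for U1026. With 4 h arrays they were 0 for serum over starved in HaCaT-EGFR, 1 for EGF there and 0 for gefitinib with EGF. Serum groups without an inhibitor were not split by time in that fit. Serum over starved in HaCaT-EGFR gave 0 with all probe sets, median centring, quantile normalization and the mean of probe sets, and HaCaT-p65 over HaCaT gave 2 with median centring. Apart from fewer arrays and genes tested, the cause of these shifts was not tested.

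Leaving out each array in turn gave 2 to 4 members for HaCaT-EGFR over HaCaT-vector in serum, 0 to 5 starved, 1 to 4 for HaCaT-EGFR over HaCaT, 3 to 6 over HaCaT-HRAS and 5 to 6 over HaCaT-p65. It gave 3 to 5 for HaCaT-HRAS over HaCaT-vector and 3 to 4 over HaCaT, 0 to 2 for HaCaT-p65 and 0 to 1 for HaCaT-vector over HaCaT. It gave 0 to 2 for serum over starved in HaCaT-EGFR, 2 to 2 for EGF in HaCaT-EGFR, 0 to 2 for gefitinib with EGF, 0 to 1 for U1026 and 0 for the other comparisons. These ranges too are given without the share of all genes called in each fit.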
